A study of Rattus norvegicus with 2 samples.

Results

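Lyz2, the gene for macrophage lysozyme, had the lowest log2 ratio of melatonin over control among the measured genes of a rat dental papilla culture, and 9 further markers of macrophages and osteoclasts were read beside it. The set comprised Lyz2, Laptm5, Cd68, Csf1r, Ptprc, Tyrobp, Fcer1g, Cd14, Acp5 and Ctsk. These are 10 of the 15164 genes that the array's RefSeq accessions named. Lyz2 was selected on its low signal with melatonin, so its own value describes the data and supports nothing. The other markers were set beside it to see whether they moved with it. None of the other 7 measured markers reached 2-fold: Laptm5 and Cd68 were 1.71-fold and 1.53-fold lower with melatonin, and Csf1r, Fcer1g, Cd14 and Ctsk lay within their spot errors of a ratio of 1. Acp5 lay at a log2 ratio of 0.14, and Ptprc was at background. Tyrobp passed background on the OS array only, where it was high, and its measured signals differed by 2.07-fold (log2 difference -1.05 ± 0.36). With another background correction (normexp) the difference was -0.15, but that method adds an offset that pulls ratios of dim probes toward 0.

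Dental papilla cells are the mesenchyme of the tooth germ, from which odontoblasts, the dentin-forming cells, arise. Primary rat cells of postnatal day 1 to 3 were expanded in 20% serum and used at passage 3 to 4. For 3 days they were kept in an odontogenic induction medium (OS) with 8% serum, ascorbic acid (0.2 mM), dexamethasone (0.1 mM) and β-glycerophosphate (10 mM). The OS group received no melatonin and the other group, labelled OS+MT, received 10 nM melatonin in the same medium. Each group was 1 sample, read on 1 array, and no label says whether a sample pooled several dishes or animals. There were therefore no replicates, no test between the groups was possible, and every ratio compares 2 arrays. The cells were primary, and no label names a sort that would have removed leukocytes.

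Macrophages arise from blood monocytes and from embryonic precursors, survive on signalling through the receptor Csf1r, and break down what they engulf in lysosomes rich in lysozyme and Cd68. Osteoclasts form by fusion of precursors of the same lineage under Csf1 and Rankl, and resorb mineral and collagen with secreted enzymes that include Acp5 and Ctsk. In the developing tooth, osteoclasts resorb the surrounding bone to let the tooth erupt, and macrophages reside in the papilla that becomes the pulp.

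Genes of this lineage share a dependence on the ETS family factor encoded by Spi1, whose recognition sequence has the core GAGGAA. The core was searched on both strands, so that it reads TTCCTC on the other strand, in RefSeq promoters of build GRCr8 from 250 bases before to 50 bases after each gene's start. Of the 10 markers, 8 had a promoter entry, and 7 of these 8 held at least 1 match. Counted by window, 7 of their 9 windows held it. Over all 33469 promoter windows of the same length, 27.6% held it. Acp5 had no match in its windows, and Tyrobp and Fcer1g had no entry. The 125 bases before the start are shown, 5′ to 3′ on the gene's strand, for the 3 markers with the lowest ratios and for Ctsk as a marker whose ratio was near 0. Capitals mark the core. The windows are chr7:54798012-54798136 on the minus strand for Lyz2, chr5:148371755-148371879 on the plus strand for Laptm5, chr10:54882442-54882566 on the minus strand for Cd68 and chr2:185747423-185747547 on the plus strand for Ctsk.
Lyz2: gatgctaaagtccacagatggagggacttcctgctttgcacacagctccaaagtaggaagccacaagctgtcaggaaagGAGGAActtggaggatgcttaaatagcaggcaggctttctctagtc
Laptm5: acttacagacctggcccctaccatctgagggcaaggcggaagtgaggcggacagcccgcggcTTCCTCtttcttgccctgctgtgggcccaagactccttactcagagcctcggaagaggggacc
Cd68: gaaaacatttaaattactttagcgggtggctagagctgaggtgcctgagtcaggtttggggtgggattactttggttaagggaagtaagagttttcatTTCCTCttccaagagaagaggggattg
Ctsk: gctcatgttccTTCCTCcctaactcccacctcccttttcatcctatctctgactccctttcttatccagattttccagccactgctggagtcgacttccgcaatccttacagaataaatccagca
The core was thus present in promoters of markers with low ratios and of a marker without one. A match is a stretch of letters and no evidence of binding.

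The array values are brightness values of single spots, and the precision of each is limited by the number of arrays. The processed signal had a 75th percentile of 428 (OS array) and 329 (melatonin array), and 55.3% and 48.4% of probes were well above background, a call made by the scanner software for each spot. No spot was saturated. Ratios below are log2 of melatonin over OS after each array was divided by its own 75th percentile. A gene counted as measured when at least 1 of its probes was well above background on both arrays, which held for 8231 genes (54.3%). Over these genes the median log2 ratio was 0.039 and the SD 0.286. Between spots of the same probe printed 10 times, the median SD of the log2 ratio was 0.159, which is error within an array and not between cultures. Signals marked ± carry the software's error for that spot, and the error of a ratio combines those of its 2 spots.

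Of the 10 markers, 8 were measured on both arrays. Tyrobp was well above background on the OS array only, which held for 6.44% of all genes on the array, and Ptprc on neither, which held for 39.1%. The 10 genes were read by 13 probes on 30 spots, and 8 of the genes rested on probes of 1 spot each. Of the 8 measured markers, 5 had a ratio below 0, where 42.4% of all measured genes did. Among the 500 genes nearest in mean signal to each marker, this share ran from 40.4% (Acp5) to 50.2% (Laptm5). Lyz2 alone was at least 2-fold lower (0.705% of all measured genes), none was at least 2-fold higher (0.255%), and 3 were at least 1.5-fold lower (2.64%). Since Lyz2 was chosen for its value, these counts include a member that had to be low. Among the other 7 measured markers, 4 were below 0 and 3 above, with a median of -0.034, 0 at least 2-fold lower and 2 at least 1.5-fold lower. The median over all 8 was -0.051. Before scaling, each of the 8 gave a lower signal on the melatonin array, as did the array as a whole.

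**Figure D1:**
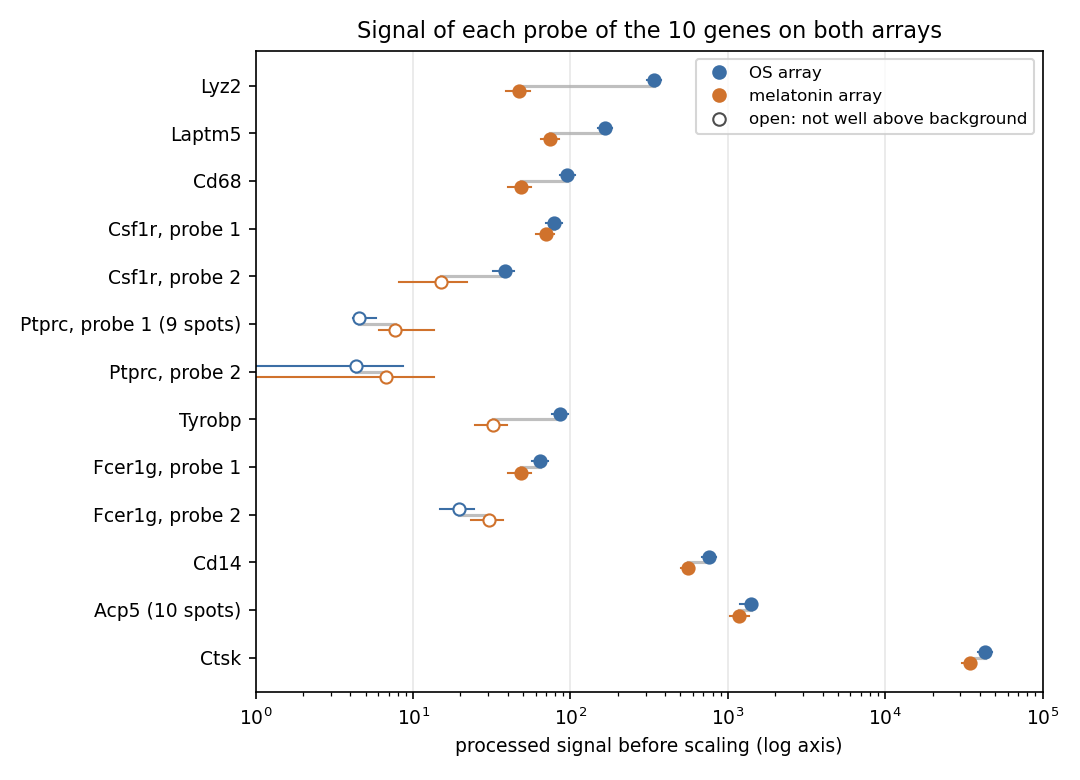
Processed signal of each of the 13 probes (log axis, before scaling) for OS and for melatonin. Bars show the software's error for single spots and the range of spots where 9 or 10 were printed, and bars that pass the left edge are cut there. The Lyz2 pair lies farthest apart among the filled points, which stand for probes well above background, at 340 and 47.1, and the pairs of Cd14, Acp5 and Ctsk lie close together.

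Lyz2 encodes the lysozyme that macrophages, monocytes and granulocytes secrete to cleave bacterial cell walls. Its single probe gave a signal of 340 ± 34.3 on the OS array and 47.1 ± 8.11 with melatonin, and it was well above background on both. Relative to each array's 75th percentile, these are -0.33 and -2.80 on the log2 scale. The log2 ratio was -2.47 ± 0.29, which is 5.54-fold lower with melatonin. The OS array gave the higher value and the melatonin array the lower. Among the 8231 measured genes this ratio ranked 1 from the lowest, and the 500 genes nearest to it in mean signal had an SD of 0.323. The unprocessed median pixel was 418.5 and 125 over local backgrounds of 21 and 19, where negative control spots had medians of 71 and 72.

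The Lyz2 value rests on 1 spot per array. The 51 probe spots within 6 rows and 3 columns of it had a median log2 ratio of -0.13, from -1.47 to 0.29. Of them, 3 were at least 2-fold lower, and no other spot there was as low as Lyz2. Over all measured genes, counted by gene and not by spot, the median was 0.039 and 0.705% were at least 2-fold lower. Whether the position of the spot affected the Lyz2 value was not tested. With normexp background correction in place of the software's subtraction, Lyz2 was 2.79-fold lower (-1.48) and ranked 7, where the method adds an offset of 50 to each corrected signal, which by construction pulls ratios of dim probes toward 0. With looser filters, which admit more dim genes, it ranked 8 and 3. Rat lysozyme has close copies, and which of them the probe can bind was not analysed here.

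Laptm5 encodes a lysosomal membrane protein of blood cells that sends receptors to degradation. Its probe gave 166 ± 17.2 on the OS array and 74.4 ± 9.87 with melatonin. The log2 ratio was -0.78 ± 0.24, or 1.71-fold lower, and ranked 113 from the lowest. Its distance from 0 exceeded the spot error and compares with an SD of 0.334 among the 500 genes of nearest signal.

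Cd68 encodes a heavily glycosylated lysosomal protein that is abundant in macrophages and osteoclasts and occurs at lower levels in other cells with many lysosomes. Its probe gave 95.7 ± 10.5 on the OS array and 48.2 ± 7.82 with melatonin. The log2 ratio was -0.61 ± 0.28, or 1.53-fold lower, with rank 192 and an SD of 0.294 among genes of nearest signal. Laptm5 and Cd68 were thus on the same side of 0 as Lyz2, yet among the 8 markers measured on both arrays the gap between Lyz2 and the next lowest, Laptm5, was 1.69 on the log2 scale. With normexp, whose offset by construction shrinks the ratios of dim probes, the ratios of Laptm5 and Cd68 were -0.32 and -0.13.

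Tyrobp encodes an adapter, also called DAP12, that carries an activating ITAM motif and pairs with receptors such as Trem2. Its probe gave 86.2 ± 9.68 on the OS array and 32.0 ± 7.21 with melatonin, where it was not well above background. A bound was therefore computed as the OS signal over the higher of the probe's own melatonin signal and the dimmest signal that still passed as well above background on that array. For Tyrobp this bound was 2.07-fold lower with melatonin. The melatonin signal of Tyrobp was itself above that dimmest signal of 29.6. The bound thus equals the log2 difference of the measured values, -1.05 ± 0.36, and is not a lower limit of the fold. With normexp, whose offset by construction shrinks the ratios of dim probes, this difference was -0.15.

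Fcer1g encodes the adapter shared by Fc receptors and Oscar, with the same kind of motif as Tyrobp. Its brighter probe gave 64.5 ± 7.74 on the OS array and 48.4 ± 8.13 with melatonin, and a log2 ratio of -0.034 ± 0.30. The other Fcer1g probe did not clear background, at 19.7 and 30.3. The sign of the Fcer1g ratio depended on the setting, from -0.11 with loess correction to 0.48 where the dim probe was included. The Fcer1g value of the main setting thus lay within its spot error of 0.

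Csf1r encodes the receptor for Csf1 and Il34. Its first probe gave 78.9 ± 9.29 on the OS array and 69.4 ± 9.10 with melatonin, with a log2 ratio of 0.20 ± 0.25. Its second probe gave 38.1 ± 5.67 and 15.1 ± 6.90, and was well above background on the OS array only, so that no fold is given. With both probes averaged the Csf1r ratio was -0.38, a value that includes the one below background, and the direction of Csf1r is not settled by these arrays.

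Ptprc encodes CD45, the phosphatase on the surface of nucleated blood cells. Its first probe was printed on 9 usable spots, which ranged from 4.13 to 5.79 on the OS array and from 6.11 to 13.6 on the melatonin array. The other Ptprc probe read 4.35 and 6.76. None of these spots was well above background, and negative control spots had median processed signals of 4.50 and 6.39. Ptprc was therefore not detectable on either array, and no ratio is given.

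Cd14 encodes a co-receptor for bacterial lipopolysaccharide that monocytes and macrophages carry and that some other cells also make. Its probe gave 762 ± 76.3 on the OS array and 557 ± 56.1 with melatonin. The log2 ratio was -0.069 ± 0.20, inside the spot error, and under normexp its sign turned (0.024).

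Acp5 encodes tartrate-resistant acid phosphatase, the enzyme used to stain osteoclasts. Its probe was printed on 10 spots, which ranged from 1199 to 1518 on the OS array (mean 1397) and from 1035 to 1364 on the melatonin array (mean 1179). After scaling the log2 ratio was 0.14, with an SD of 0.118 between spots, and 7 of the 10 spots were above 0. The spots ran from -0.033 to 0.28. Its spots on the 2 arrays overlapped before scaling.

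Ctsk encodes cathepsin K, the protease with which osteoclasts degrade bone collagen and which fibroblasts also make. Its probe gave 43040 ± 4304 on the OS array and 34337 ± 3434 with melatonin. The log2 ratio was 0.055 ± 0.20, a difference of 1.04-fold, and under normexp it was -0.017. The osteoclast enzymes thus gave ratios near the median of all genes, unlike Lyz2.

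**Figure D2:**
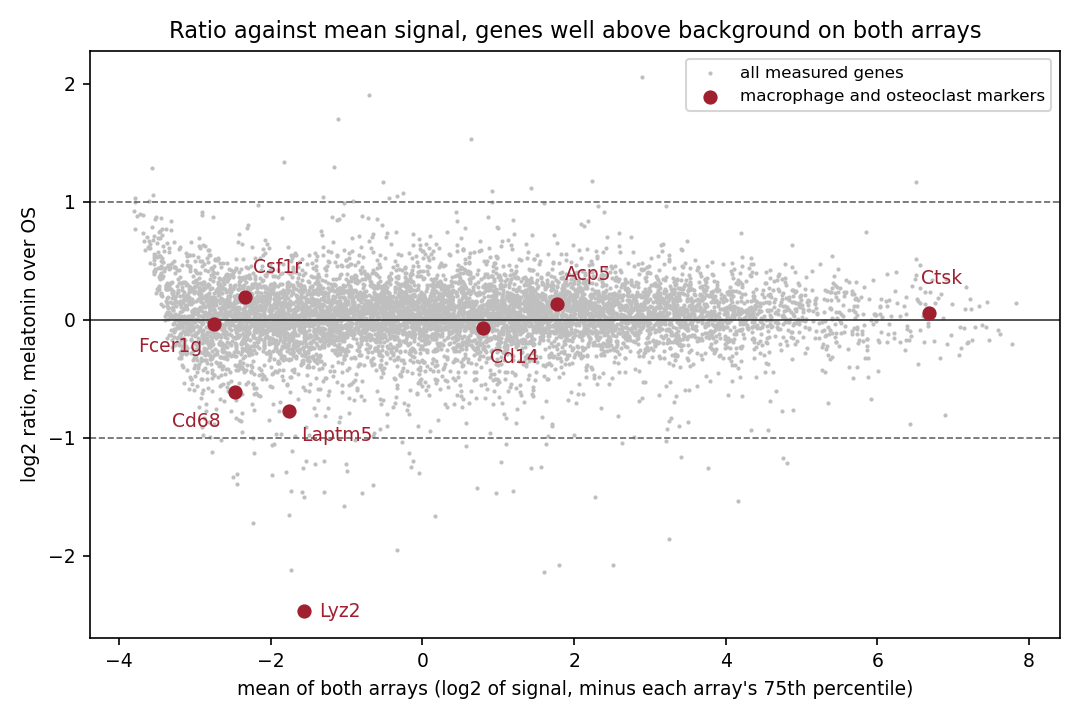
Log2 ratio of melatonin over OS against the mean log2 signal of both arrays for the 8231 measured genes (grey), with the 8 measured markers in red and dashed lines at 2-fold. Lyz2 lies at -2.47, below every other gene of the plot, Laptm5 and Cd68 lie at -0.78 and -0.61 in the lower part of the grey cloud, and the other 5 lie between -0.069 and 0.20.

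Of the 10 markers, 7 were grouped as largely restricted to leukocytes (Lyz2, Laptm5, Csf1r, Ptprc, Tyrobp, Fcer1g and Cd14), although some other cells also make Cd14. Their summed signal, as a multiple of each array's 75th percentile, was 3.41 with OS alone and 2.43 with melatonin. Without Lyz2 the sums were 2.61 and 2.29. Most of these came from Cd14, whose signals before scaling were 762 (OS) and 557 (melatonin). The next brightest, Laptm5, read 166 and 74.4. In RNA of a whole culture, fewer cells of a type and less RNA per cell cannot be told apart. The 3 measured genes with ratios closest to Lyz2 were Otor (otoraplin, a secreted protein first known from the cochlea) at -2.13, Hmx1 (a homeobox factor) at -2.12 and Tubb4a (a β-tubulin) at -2.08. Each was read by 1 spot, likeness was measured over 2 arrays only, and none of the 3 is a marker in the lists described here.

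Further genes of the macrophage lineage came from lists of marker genes that were written with earlier results of these data known. The macrophage list of surface, complement and lysosomal genes had 38 genes on the array, of which 10 were measured (26.3%). Of these 10, 2 were below 0 and 8 above, with a median log2 ratio of 0.082, and 0 were past 2-fold. The lowest were Slc11a1 (a phagosomal metal transporter) at -0.87 and C1qb (a chain of complement C1q) at -0.34. The highest were Ly96, the partner of Tlr4, at 0.37 and the receptor Tlr2 at 0.30. Well above background on the OS array only were 7 genes, among them C1qa, Cd74, Ctss and Trem2, none with a bound above 1.76-fold. The other 21 were well above background on neither array, and they include the defining markers Adgre1, Cd163, Mrc1, Marco, Mpeg1 and C1qc. Summed over the list, the scaled signal was 36.8 with OS alone and 38.8 with melatonin, and Ifi30 and Gpnmb held 81.7% and 83.2% of these sums.

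The leukocyte-wide list had 35 genes on the array and 11 measured. Of these, 7 were below 0 and 4 above, with a median of -0.054 that turned to 0.18 with normexp and to 0.37 without the filter on dim probes. The lowest were Ncf1 (a subunit of the phagocyte oxidase) at -0.65 and Cytip (a regulator of leukocyte adhesion) at -0.57, and the highest were Lcp2, an adapter of immune receptors, at 0.50 and Runx1, a transcription factor, at 0.37. A further 3 genes (Coro1a, Lst1 and Ptpn6) were well above background on the OS array only. The other 21 were on neither, including Spi1, Itgam, Itgb2, Irf8 and Cybb. The summed scaled signal of the list was 70.1 and 73.4, of which Cebpb and Runx1, factors that mesenchyme also makes, held 94.3% and 94.6%.

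Joined, and without the 10 markers, the macrophage and leukocyte lists had 73 genes on the array. On both arrays 21 were measured (28.8%, against 54.3% of all genes). Of these, 9 had a ratio below 0 (42.9%, against 42.4% of all measured genes) and 12 above. Their median was 0.069 and they ran from -0.87 to 0.50, so that 0 of 21 reached 2-fold. On the OS array only were 10 genes (13.7%, against 6.44%), on the melatonin array only 0, and on neither 42 (57.5%, against 39.1%). The measured genes of these lists thus had a share below 0 close to that of all genes, a comparison not matched for signal. They include genes that mesenchyme also makes, such as Cebpb and Runx1, so the share is not one of macrophages alone. Among the 500 genes nearest in mean signal, 50.2% were below 0 for the dim Laptm5 and 45.4% for Fcer1g. For the brighter Acp5 the share was 40.4%. The genes on the OS array only show no decrease by that fact: they passed through the array where they were high, the dimmest signal that passed was 20.7 there and 29.6 with melatonin, and 7 of the 10 had a bound under 1.

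**Figure D3:**
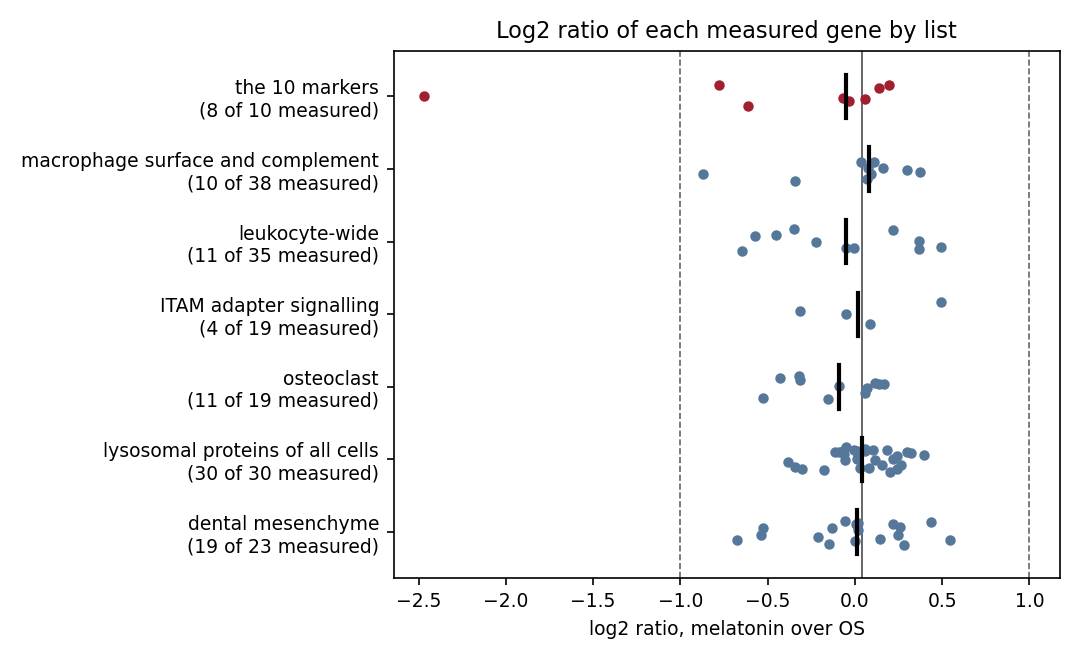
Log2 ratio of melatonin over OS for each measured gene (points) of the 10 markers and of 6 other lists, with the median of each list (thick bar), the median of all measured genes (thin line, 0.039) and 2-fold (dashed lines). Lyz2 at -2.47 is the only point of these 7 rows past 2-fold, and the list medians lie between -0.090 and 0.082. Lists not drawn hold further genes past 2-fold, Hbb at -1.73 and Lyzl6 at -1.33. Their medians run from -1.90 (lysozyme family, 2 genes with Lyz2) to 0.84 (neutrophil and mast cell, 1 gene).

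Signalling below Tyrobp and Fcer1g runs through kinases such as Syk to adapters such as Lcp2 and Card9. Of 19 genes of this list on the array, 4 were measured (54.3% of all genes were). On neither array were 13, Syk among them, where 39.1% of all genes were. Of the 4, 2 were below 0 and 2 above (median 0.019). Their ratios were -0.31 for Oscar, -0.051 for Card9, 0.089 for the inhibitory receptor Sirpa and 0.50 for Lcp2. Of the ligands and their partners, 9 of 11 genes were measured, 3 below 0 and 6 above, with a median of 0.10 (as low as -0.025 under the alternatives). Csf1 had a ratio of 0.00 over 8 spots, Il34 of -0.14 and the Rankl decoy receptor Tnfrsf11b of -0.30, while Csf2ra was at -0.20, Csf3 at 0.34 and the chemokine Ccl7 at 0.54. Tnfsf11, which encodes Rankl, was on neither array. None of these genes reached 2-fold.

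The osteoclast list, which holds Acp5 and Ctsk, had 19 genes on the array and 11 measured. Of these, 6 were below 0 and 5 above, with a median of -0.090 that turned above 0 under 2 alternatives (at most 0.055). The lowest were Mitf, a transcription factor of the lineage, at -0.53 and Plekhm1, which acts in vesicle transport, at -0.43. The highest were Car2, the carbonic anhydrase that supplies acid, at 0.17 and Acp5 at 0.14. On neither array were Atp6v0d2, Calcr, Mmp9, Siglec15, Traf6 and Sh3pxd2a. Ctsk and Acp5 were bright where these genes of the list were not well above background. Other genes of the list were bright too, such as Ostm1 (1216 with OS alone, 864 with melatonin) and Tcirg1 (784 and 565). On the OS array only were Itgb3 and Snx10.

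Lysosomal proteins that all cells make were measured for 30 of 30 genes, where 54.3% of all genes were measured. Of these, 11 were below 0 and 19 above, and their median of 0.041 lay beside that of all genes. The lowest were Ppt1 at -0.38 and Neu1 at -0.34, and the highest were Ctsc at 0.40 and Ctsa at 0.32.

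Of the lysozyme family, 8 genes were on the array and 2 were measured. Beside Lyz2 this was Lyzl6, a lysozyme-like gene known from testis, at a log2 ratio of -1.33 (2.52-fold lower), with signals of 121 and 36.8 on 1 spot each. The other 6 were on neither array. The median of the whole family without the filter on dim probes was 0.66, so no direction is given for it.

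Markers of other cell types were read in the same way. Of all genes on the array, 54.3% were measured and 39.1% were on neither array. Of 20 lymphocyte genes, 18 were on neither array, and the measured 2 were Cd3d at -0.42 and Cd3g at 0.04. Of 18 neutrophil and mast cell genes, 17 were on neither array, and Hdc, which makes histamine, was at 0.84. Of 9 red cell genes, 4 were measured: Hbb was 3.31-fold lower (-1.73), Hba-a1 was at -0.21, Hbb-b1 at -0.17 and Epor at 0.05. The Hbb value came from 1 of its 2 probes, on 1 spot. Its scaled log2 signal with melatonin, -3.09, was near the dimmest that passed there, -3.47. Of 12 endothelial genes, 4 were measured, from -0.39 for Sox18 over Erg at -0.09 and Cdh5 at -0.085 to 0.03 for Flt1. Of the endothelial genes on the OS array only, Pecam1 had a bound of 2.59-fold lower and Kdr of 1.98. These bounds leave out the spot errors. A probe not well above background can also lie above the dimmest signal that passed, as Tyrobp did. Without the filter on dim probes the medians of the lymphocyte, red cell and endothelial lists, -0.19, -0.19 and -0.086 here, turned to 0.91, 0.79 and 0.20. Pecam1 entered through the OS array, where it was high, and the part of red and endothelial cells in the Lyz2 value was not tested.

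The label of the culture was checked against 23 genes of dental mesenchyme, of which 19 were measured (82.6%, against 54.3% of all genes). Vim, Col1a1, Msx1, Pax9 and Lhx8 were among them. The odontoblast genes Dspp and Dmp1 were on neither array, and Bglap and Sp7 on the OS array only. Of the 19, 7 were below 0 and 12 above, with a median of 0.0092, where 42.4% of all measured genes were below 0. The lowest were Thy1 at -0.68 and Nfic at -0.54, and the highest were Lhx6 at 0.55 and Msx2 at 0.44. None reached 2-fold.

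How far each marker's ratio depended on scaling, background correction and filters was read from the plot of ratios by setting. Of the 73 values that the alternatives gave for the 7 measured markers other than Lyz2, 66 moved by less than 0.159, the SD between spots, and 7 by more. The markers that moved were Laptm5 and Cd68 with normexp, Csf1r where its dimmer probe entered, and Fcer1g under both of these changes.

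**Figure D4:**
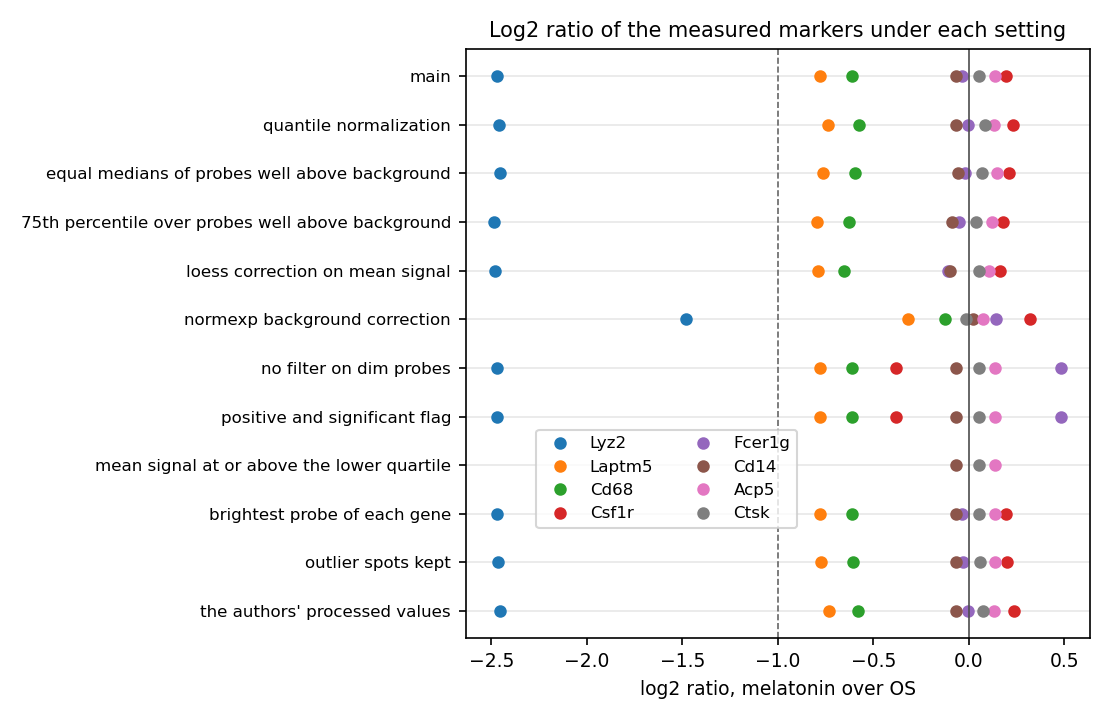
Log2 ratio of melatonin over OS for each measured marker under the main setting and 11 alternatives, with a dashed line at 2-fold lower and a solid line at 0. Lyz2 lies between -2.49 and -2.46 except with normexp, at -1.48, and has no value under the lower quartile filter. Laptm5 and Cd68 lie below 0 in every setting that gives them, and Csf1r, Fcer1g, Cd14 and Ctsk take both signs.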

How the data were processed

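Each group was read on 1 Agilent 1-colour array of Cy3-labelled cRNA (design 028282; annotation build rn4), per the file headers. The deposited intensity values are processed signals of Agilent Feature Extraction 11.0.1.1, background-subtracted and spatially detrended per the file headers. The deposited flags (control, well above background, saturated, outlier) were used as given. The authors' processed table holds log2 values on a scale matching the scanner signal, with a normalization not stated by the labels or headers. It served as an alternative.

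Of 42877 spots outside the controls, 937 flagged as outliers on either array were left out. Signals were taken to log2, each array's 75th percentile was subtracted, and spots were averaged per probe and measured probes per gene. Unversioned RefSeq accessions gave a symbol (GRCr8 table) to 18000 of 30359 probes (59.3%). The build of that table differs from the array's, so array positions are not given. No p-value was computed. The members and lists were chosen with earlier results of these data known. All 10 markers are named. From each list the rule named members past 2-fold or else the 2 lowest and 2 highest ratios, bounds of at least 2-fold, the defining markers at background, and the 3 genes closest to Lyz2. Any other list gene was picked with its value in view. The scaling and gene steps were tested on data simulated from the OS array with its background flags kept. Loss of detection and the bounds were not tested. Alternatives were other scalings, loess, normexp (limma 3.58.1, offset 50), other filters, probe rules and thresholds. Calculations used Python 3.11.15 with pandas 2.3.3 and R 4.3.3.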

Additional observations from a re-analysis of the deposited data

How the results depend on the processing

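With 1 array per group, a value counted as moved when it shifted by more than 0.159 (the median SD between spots of a probe), and a count when it differed by more than 1.5 times. The Lyz2 log2 ratio lay between -2.49 and -2.46 in 9 of 10 alternatives that gave it and was -1.48 with normexp. Lyz2 has 1 probe, so the filters and probe rules among these 9 could not change its ratio. It ranked 1 from the lowest except with normexp (7), without the filter on dim probes (8) and with the positive and significant flag as filter (3). When genes under the lower quartile of mean signal were removed, Lyz2 was dropped, 3 of the 10 markers were measured, 1 was below 0 and 0 were at least 2-fold lower. Markers at least 2-fold lower numbered 2 without the filter on dim probes and 2 with the positive and significant flag, where Tyrobp joined Lyz2, and 3 at a threshold of 1.5-fold. The median over the markers was -0.23 without the filter and -0.38 with that flag, where the dimmer probes of Csf1r and Fcer1g entered. With normexp, 4 of 8 markers were below 0, where 33.2% of all measured genes were. For the other 7 markers, 66 of 73 alternative values moved by less than the spot SD and 7 by more. Part of the 66 were fixed in advance, since filters and probe rules leave a gene with 1 probe unchanged. The lysozyme family median, -1.90 over 2 genes, was 0.66 without the filter on dim probes, where genes at background entered. Signal over background limits these values: a scaled log2 signal under -3.47 on the melatonin array, or under -4.37 on the OS array, was below any probe called well above background. No paired analysis was possible because each group had 1 array.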
